A study of Mus musculus with 24 samples.

Results

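Collagens are the proteins of the extracellular matrix built as triple helices of 3 α chains, and each chain has its own gene. Collagen genes were taken as all rows of the 4 deposited expression tables whose symbol is Col, a type number, the letter a and a chain number. Of 35742 genes, 44 matched, and the 38 with a mean of at least 1 normalized count over the 24 libraries were described. The 6 left out were Col4a3 (mean 0.996), Col6a3 (0.987), Col9a1, Col28a1, Col8a1 and Col19a1, and the lowest of the 38 was Col3a1 (1.27). The 38 comprised 11 genes of fibrillar chains, 5 of type IV, 5 of type VI, 1 of type VII, 2 of the short-chain types VIII and X, 7 of fibril-associated collagens, 4 of transmembrane collagens, 2 of the multiplexins XV and XVIII, and Col26a1.

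RNA came from V6.5, a mouse embryonic stem (mES) cell line, here carrying a BRD2 degron. BRD2 is a BET bromodomain protein that binds acetylated chromatin, and a degron is a tag through which auxin directs a protein to the proteasome. The mES cells grew in 2i medium with LIF, 15% FBS, 3 µM CHIR99021 and 1 µM PD0325901, and EBs (embryoid bodies, in which aggregated stem cells begin to differentiate) formed in medium without LIF for 2, 3 or 4 days (EBd2, EBd3, EBd4). All 8 groups, the controls included, carried the degron and received doxycycline (Dox, 1 µg/ml, 18 h); in each stage 3 libraries had Dox alone and 3 were also given indole-3-acetic acid (IAA), an auxin, at 500 µM for 24 h. The model is 1 cell line without a group that received IAA but lacked the degron, the time of IAA within EB culture is not stated, and whether replicate libraries came from different cultures is not stated. Spread between replicates, on which every p-value rests, may thus be technical.

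As background, fibrillar collagens (types I, II, III, V, XI and relatives) form the fibrils of connective tissue, with types V and XI setting fibril diameter. Type IV forms the network of basement membranes, the sheets that the first epithelia of the embryo rest on, and its 6 chains assemble in fixed combinations from 3 head-to-head gene pairs. Fibril-associated and type VI collagens link fibrils to their surroundings, transmembrane collagens sit in the plasma membrane, and the multiplexin XVIII of basement membranes is the source of endostatin.

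Libraries held 7819522 to 15732767 recovered reads, and in EBd4 every IAA library (9007143 to 10598075) was deeper than every Dox library (7941180 to 8120480). Replicates differed by more than sampling noise in all 24 pairs within groups (chi-square per degree of freedom 1.11 to 4.90). EBd2 Dox 3 stood apart from its replicates (4.09 and 3.44), as did EBd4 IAA 1 (3.40 and 4.90). The mitochondrial share of reads was higher with IAA without overlap in EBd2, at 0.959% to 1.03% beside 0.831% to 0.892%, and likewise for EBd3, at 1.25% to 1.26% beside 1.14% to 1.19%, and its part in the results was not tested. Naive pluripotency markers, summed, lay between 43630 and 53137 normalized counts in mES libraries and between 1715 and 5702 in EB libraries, as the stage labels say. Brd2 transcript was higher with IAA in every stage, from 1.30-fold in EBd3 to 1.83-fold in mES (limma, adjusted p from 1.12e-27 to 0.000226), and since a degron acts on the protein this level does not check the depletion.

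With IAA more collagen genes fell than rose in every stage. Levels below are size-factor-normalized counts, given as mean ± SD over 3 libraries (n = 3), and changes are log2 fold changes of IAA over Dox ± SE on the log2(value + 1) scale, from limma across all genes with Benjamini-Hochberg adjustment at 0.05. Genes with a mean of at least 1 over the libraries of a comparison were tested. In mES cells 11 of 29 tested collagen genes fell and 5 rose, where 37.5% of all genes tested were called (20.1% lower, 17.3% higher). Of these falls, Col4a5 and Col5a2 averaged under 1 with IAA (0.795 and 0.326) and passed the filter only through Dox libraries. Their direction thus followed from the filter. In EBd2 15 of 38 fell and 3 rose, against 30.1% of all genes (16.7% lower, 13.4% higher). There the direction of Col3a1, at 0.221 with IAA, likewise followed from the filter. In EBd3 5 of 38 fell and 0 rose, against 10.5% of all genes (6.32% lower, 4.22% higher), and 10 had an unadjusted p below 0.05. There edgeR also called 5 falls and DESeq2 2, both with 0 rises. In EBd4 8 of 36 fell and 2 rose, against 10.3% of all genes (5.57% lower, 4.69% higher). The median change of the collagen genes tested was -0.41 in mES, -0.53 in EBd2, -0.39 in EBd3 and -0.09 in EBd4, beside -0.01, -0.04, -0.01 and -0.01 over all genes.

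Over the 4 stages 25 of the 38 genes fell in at least 1 stage and 8 rose in at least 1. Col4a5 was the 1 gene called lower in all 4 stages, and Col5a1, Col5a2 and Col17a1 were called lower in 3. For Col4a5 and Col5a2 the mES direction followed from the filter. Col2a1, the chain of cartilage collagen, rose in 3 stages and fell in none. Col18a1 and Col4a1 were called in opposite directions in different stages, and Col27a1, Col13a1, Col1a1, Col14a1, Col25a1, Col6a6 and Col10a1 were called in none of the stages in which they were tested. Not tested for low level were 9 genes in mES (Col6a1, Col4a6, Col1a2, Col25a1, Col24a1, Col12a1, Col6a6, Col15a1 and Col3a1) and 2 in EBd4 (Col6a6 and Col3a1). The authors' deposited table, whose calls also need a change of more than 1 on the log2 scale, lists 10 collagen genes as lower and 2 as higher in mES, 5 and 0 in EBd2, 3 and 0 in EBd3, then 2 and 0 in EBd4. In the bulk samples, fewer cells of a type and less RNA per cell cannot be told apart.

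**Figure D1:**
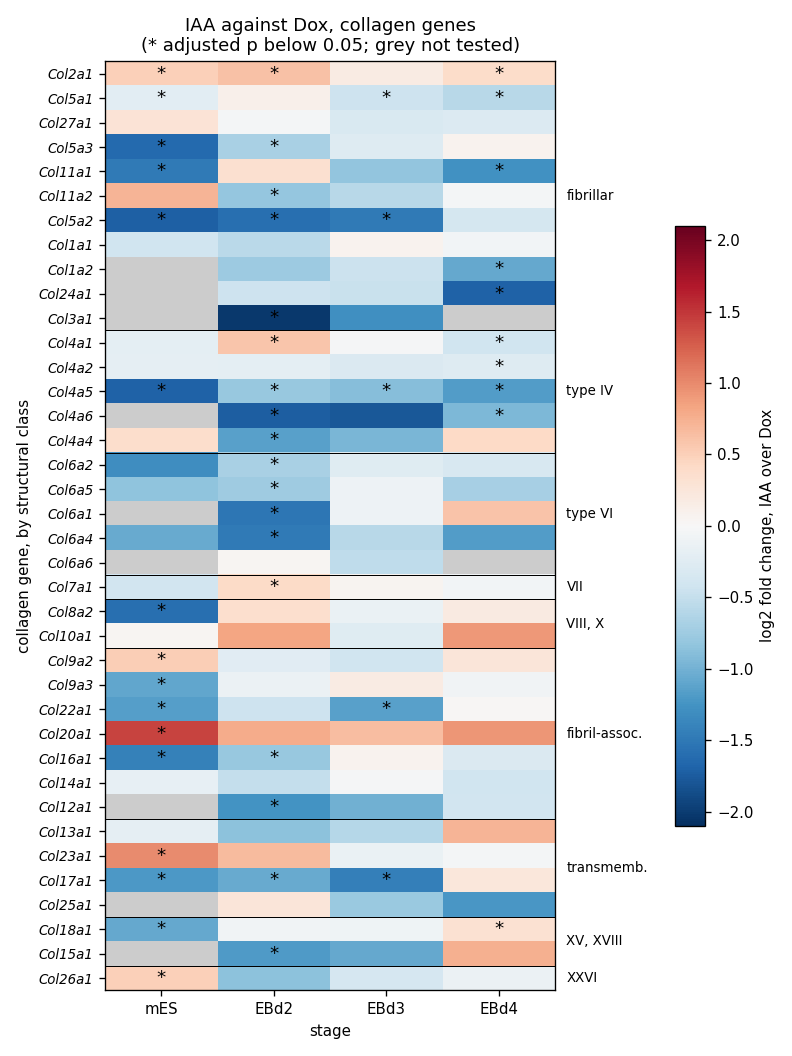
Change with IAA of 38 collagen genes (rows, by structural class) in 4 stages (columns); colour is the log2 fold change of IAA over Dox, an asterisk marks an adjusted p below 0.05 and grey marks genes not tested in that stage. Col4a5 is called lower in all 4 columns, and Col2a1 is called higher in 3. The mES direction of Col4a5 followed from the filter on low values.

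The calls rested on the libraries to different degrees. In mES, 9 of the 16 calls held under each of the 15 alternatives (another constant, scaling, filter, tool or fit, or 1 library left out) that gave a value, namely those of Col18a1, Col9a2, Col9a3, Col5a3, Col22a1, Col20a1, Col11a1, Col23a1 and Col17a1. There the call of Col8a2 was lost without Dox 1 (adjusted p = 0.0565), that of Col4a5 without IAA 1 (0.0501), and that of Col16a1 without Dox 1, Dox 3 or IAA 3 (up to 0.240). The mES call of Col5a2 was lost without Dox 2, Dox 3 or IAA 3 (up to 0.0887), and that of Col5a1 with DESeq2, in a joint fit of all 24 libraries, and without Dox 2, Dox 3, IAA 1 or IAA 3 (up to 0.227). That of Col26a1 was lost in the joint fit (0.384).

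In EBd2, 6 of the 18 calls held under each alternative that gave a value (Col4a1, Col2a1, Col7a1, Col17a1, Col5a2 and Col3a1). That of Col3a1 rested on 14 reads with Dox and 1 with IAA, and 2 of 15 alternatives gave it no value. Its direction followed from the filter on low values. The count of falls was 9 without Dox 1 and 8 without Dox 2, since Col4a5, Col4a4, Col11a2, Col12a1 and Col15a1 were lost without either. Without Dox 3, the library that stood apart, 16 fell and 3 rose, and Col18a1 was then among the falls (-0.11 ± 0.03, adjusted p = 0.00978). In EBd3 0 of the 5 calls held throughout. The count of falls was 1 without Dox 1 or without IAA 2, and 2 without Dox 2 or without Dox 3. In EBd4 those of Col4a1 and Col4a5 held throughout. EBd4 counts were 2 lower and 0 higher without Dox 1, 5 and 0 without Dox 2, and 4 and 0 without IAA 2. Without EBd4 IAA 1, the library that stood apart, they were 5 lower and 1 higher, and without Dox 3 the rises numbered 1.

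Col18a1 supplied much of the collagen transcript. It held 39.8% ± 0.440 of the collagen signal per kilobase of exon in mES Dox libraries, 80.5% ± 0.674 in EBd2, 66.2% ± 0.746 in EBd3 and 53.7% ± 1.71 in EBd4 (n = 3). Per kilobase, Col9a2 was second in mES (117 in Dox), and Col4a1 was second in the Dox libraries of EBd2 (44.1), EBd3 (75.2) and EBd4 (115). With IAA the order turned in mES cells, where Col9a2 (167 per kilobase) stood above Col18a1 (91.3). The summed level of all 38 genes was 2896 ± 56.1 normalized counts in mES Dox and 8318 ± 412 in EBd2 Dox. Without Col18a1 the sum was 1549 ± 35.0 and 1621 ± 32.0, and then 1946 ± 64.1 in EBd3 and 2676 ± 107 in EBd4.

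**Figure D2:**
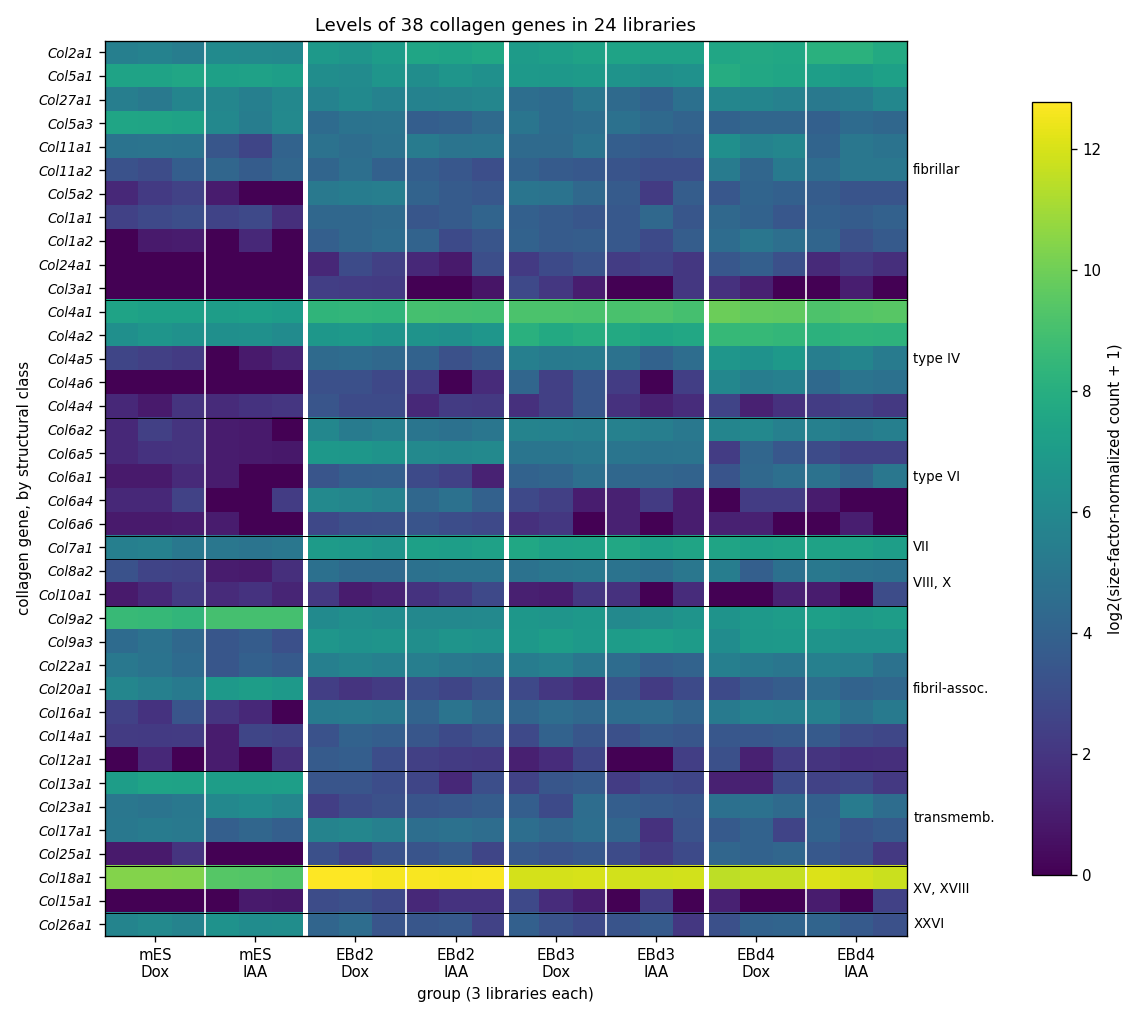
Levels of 38 collagen genes (rows, by structural class) in 24 libraries (columns, 3 per group); colour is log2 of the normalized count plus 1. Col18a1 is the brightest row in the EB columns, and Col13a1, Col20a1, Col5a3 and Col9a2 are brighter in mES than in EB libraries.

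Many collagen genes changed as stem cells became EBs. Between mES and EBd2 in Dox, 27 of the 38 genes tested rose and 7 fell (64.1% of all genes called, 35.0% higher and 29.1% lower). Of the genes that rose, 7 averaged under 1 normalized count in mES Dox and passed the filter on low values only through EB libraries, so that their direction followed from the filter and nothing is read from the share of rises. Col4a6, Col24a1, Col15a1 and Col3a1 of these had 0 reads there, and Col1a2, Col12a1 and Col6a6 had 2, 2 and 3. From EBd2 to EBd3, 7 rose and 8 fell (46.4% of all genes called, 22.0% higher and 24.4% lower). From EBd3 to EBd4, 11 rose and 7 fell (33.7% of all genes called, 16.1% higher and 17.6% lower). Among these falls, that of Col15a1 rested on 8 reads in EBd3 Dox and 1 in EBd4 Dox. The 95% exact interval of that ratio, 0.938 to 310, includes 1 and covers counting error only. Col15a1 averaged 0.424 in EBd4 Dox and passed the filter only through earlier stages, so nothing is read from its direction. Its call was lost under 7 of 15 alternatives, and 2 gave no value. The 5 type IV and 5 type VI genes tested were called higher at the first step, but for Col4a6 and Col6a6 the direction followed from the filter. The call of Col4a2 was lost under 7 of 15 alternatives. The genes that fell at the first step were Col13a1, Col20a1, Col5a3, Col9a2, Col23a1, Col26a1 and Col5a1. Of these step calls, 32 of 34, 11 of 15 and 14 of 18 held under every alternative that gave a value. At the last step the falls numbered 4 without EBd3 Dox 1 or without EBd4 Dox 3. Markers of other cell types were counted at the first step as well. Fibroblast or feeder markers had 5 rises and 1 fall of 7, with Dcn, Lum, Postn, Fap, Twist2 and Mgp at 0 in mES Dox and sums of 756 to 843 there and 600 to 631 in EBd2. Mesoderm markers had 6 rises and 0 falls of 9 (sums 118 to 121 and 227 to 251, Mesp1 at 0 in mES), and endoderm markers 5 and 0 of 10 (sums 106 to 116 and 200 to 211; Foxa2 and Afp at 0 in mES, Ttr and Afp in EBd2). At the last step fibroblast markers had 4 rises and 1 fall, mesoderm markers 4 and 0, and endoderm markers 4 and 2. Markers at 0 in mES Dox, where tested, passed the filter only through EB libraries. Their direction at the first step followed from the filter, so nothing is read from the shares of marker rises. The part of these markers in the collagen steps was not tested.

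Col18a1 encodes the α1 chain of type XVIII, a proteoglycan of basement membranes, and is on chromosome 10 (mm10, chr10:77052178-77166548, minus strand, 44 merged exons). In mES cells it stood at 1355, 1364 and 1323 normalized counts with Dox and at 671, 652 and 599 with IAA. All IAA libraries lay below all Dox libraries, and the mean fell from 1347 ± 21.4 to 641 ± 37.2, a change of -1.07 ± 0.04 (adjusted p = 3.44e-22). In EBd2 Dox it reached 6965, 6868 and 6258, and in IAA 6493, 6247 and 6423. These groups overlapped, with a change of -0.07 ± 0.04 (adjusted p = 0.285). The effect in EBd2 minus that in mES was 1.01 ± 0.08 (adjusted p = 3.19e-11).

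Later the level of Col18a1 declined in Dox, to 3970 ± 48.2 in EBd3 and 3103 ± 157 in EBd4. EBd3 IAA libraries held 3774, 3662 and 3800, against 3917, 3984 and 4010 in Dox (change -0.08 ± 0.04, adjusted p = 0.147). In EBd4 the direction was the other way, with 4401, 3905 and 3416 in IAA above 2922, 3210 and 3178 in Dox. That rise of 0.33 ± 0.07 had an adjusted p of 0.00903, which went up to 0.0950 without Dox 1 and also missed the threshold without Dox 2 or IAA 2. The EBd4 effect minus the EBd3 effect was 0.41 ± 0.08 (adjusted p = 0.00219), and this difference held under every alternative. The other multiplexin, Col15a1, had 0 reads in the mES Dox libraries and 24 in EBd2 Dox, a level at least 7.31-fold higher against a floor of 3 reads per group.

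The type IV genes, the basement membrane chains, lie in head-to-head pairs. Col4a1 (chr8:11198423-11312826, minus strand) and Col4a2 (chr8:11312805-11449287, plus strand) encode the chains of the ubiquitous network, and their annotated ends overlap by 22 bases. Col4a6 (chrX:141165403-141474076, minus strand) and Col4a5 (chrX:141475385-141689234, plus strand) are 1308 bases apart, and Col4a4 (chr1:82448423-82586849, minus strand) is 71 bases from Col4a3. All are mm10 positions from GENCODE M21. The DNA just upstream of the Col4a6 and Col4a5 starts is shown, as is the stretch between Col4a4 and Col4a3, because members of a pair share such a region. Capitals mark matches to the GC box or CCAAT box in either strand (RefSeq, GRCm38.p6, each in its gene's direction). Bases in GENCODE exons were left out, which cut the Col4a5 stretch to 216 bases. The window of 250 bases before the RefSeq start of Col4a5 also holds 1 GC box match that is not wholly within the printed stretch.

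Col4a6, chrX:141474077-141474326, minus strand: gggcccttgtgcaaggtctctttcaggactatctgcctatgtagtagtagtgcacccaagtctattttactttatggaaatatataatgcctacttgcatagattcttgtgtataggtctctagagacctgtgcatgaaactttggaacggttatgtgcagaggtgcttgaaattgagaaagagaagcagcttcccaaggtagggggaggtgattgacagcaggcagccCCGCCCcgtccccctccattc
Col4a5, chrX:141475169-141475384, plus strand: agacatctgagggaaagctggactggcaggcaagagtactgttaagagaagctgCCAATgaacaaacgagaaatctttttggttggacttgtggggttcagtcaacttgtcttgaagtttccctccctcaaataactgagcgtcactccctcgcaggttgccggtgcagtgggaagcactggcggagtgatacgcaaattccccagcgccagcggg
Col4a4, chr1:82586850-82586920, minus strand: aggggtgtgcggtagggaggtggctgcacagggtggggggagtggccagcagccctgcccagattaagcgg

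The motif search covered GGGCGG (GC box), CCAAT and TATAAA, both strands, in windows of the 250 bases before each start. Of the 38 genes, 30 had a window, 32 windows in all. GGGCGG was in 21 of the 32 and in 32.7% of all 32851 windows. CCAAT was in 12 of the 32 and in 33.8% of all, and TATAAA in 5 of the 32 and in 12.4% of all. A match describes letters and is not a binding site.

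Col4a5 encodes an α chain that partners with either the α3 and α4 chains or with α6, and it fell in every stage. Its EBd4 values were 102, 88.5 and 121 normalized counts with Dox and 43.6, 54.8 and 38.3 with IAA. The groups did not overlap, and the mean fell from 104 ± 16.3 to 45.6 ± 8.42, a change of -1.17 ± 0.18 (adjusted p = 0.000996) that held under every alternative. In EBd3 it was at 45.1, 36.2 and 38.2 with Dox and 27.1, 14.9 and 22.3 with IAA, a change of -0.90 ± 0.25 (adjusted p = 0.0193). That EBd3 call was lost with DESeq2, in a joint fit of all 24 libraries, and without Dox 1, Dox 2, Dox 3 or IAA 2 (up to 0.119). In EBd2 the values were 20.1, 21.7 and 18.7 against 15.0, 8.12 and 11.3, a change of -0.80 ± 0.28 (adjusted p = 0.0343). There the call was lost with DESeq2 (0.154), with no filter on low values, and without Dox 1, Dox 2, IAA 2 or IAA 3. In mES it rested on 15 reads in the Dox libraries and 3 in the IAA libraries, a ratio of 5.23 with a 95% exact interval of 1.48 to 28.2 that covers counting error only. The mES direction of Col4a5 followed from the filter on low values.

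Col4a6, its head-to-head neighbour, had 0 reads in all 6 mES libraries. In EBd4 it was at 59.8, 41.1 and 46.6 with Dox and at 19.9, 29.1 and 25.9 with IAA. It fell there by 0.95 on the log2 scale (SE 0.23, adjusted p = 0.0170; 0.255 in a joint fit of all 24 libraries, 0.115 without Dox 1, and also lost without IAA 1). In EBd2 it fell from 6.95 ± 1.05 to 1.84 ± 1.77 (change -1.73 ± 0.51, adjusted p = 0.0131), a call lost with DESeq2 and without Dox 2 or IAA 2 (up to 0.0928). In EBd3 the change was -1.78 ± 0.60 (adjusted p = 0.0541). Per kilobase, Col4a5 stood 2.02- to 3.08-fold above Col4a6 in EBd4 Dox libraries and 1.75- to 2.60-fold in IAA libraries, ranges that overlap.

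Col4a1 went in different directions by stage. With Dox it was at 324, 336 and 327 in EBd2, and with IAA at 519, 486 and 473. All IAA libraries were higher, a rise of 0.58 ± 0.07 (adjusted p = 1.12e-06). In EBd4 it was at 944, 841 and 792 with Dox and at 587, 644 and 703 with IAA, and it fell by 0.41 on the log2 scale (SE 0.08, adjusted p = 0.00397). Both calls held under every alternative. In mES the change was -0.21 ± 0.09 (adjusted p = 0.0557), and in EBd3 it was -0.03 ± 0.07 (adjusted p = 0.861). The effect rose from mES to EBd2 by 0.79 ± 0.10 (adjusted p = 6.60e-07) and was lower by 0.61 in EBd3 than in EBd2 (difference -0.61 ± 0.10, adjusted p = 0.000187). It was lower again in EBd4 than in EBd3 (difference -0.39 ± 0.10, adjusted p = 0.0241), but this last call was lost without EBd3 IAA 2, EBd4 Dox 1 or EBd4 IAA 1 (up to 0.0976).

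Its partner Col4a2 was not called in EBd2. It was at 109, 115 and 97.6 with Dox and at 91.8, 84.8 and 103 with IAA in EBd2, groups that overlap (change -0.20 ± 0.12, adjusted p = 0.224). The ratio of Col4a1 to Col4a2 per kilobase was 2.59 to 2.97 in EBd2 Dox libraries and 4.06 to 5.08 in IAA libraries, without overlap; no test of the ratio was made. In mES the ratio ranged from 1.36 to 1.87 with Dox and from 1.503 to 1.67 with IAA. In EBd4 Col4a2 was at 379, 373 and 346 with Dox and at 299, 314 and 301 with IAA. That fall of 0.26 on the log2 scale (SE 0.08, adjusted p = 0.0422) was lost without Dox 1, Dox 2, IAA 1, IAA 2 or IAA 3 (up to 0.157), with DESeq2 and in the joint fit. The chains of both genes are needed in the common heterotrimer, in which α1 outnumbers α2.

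**Figure D3:**
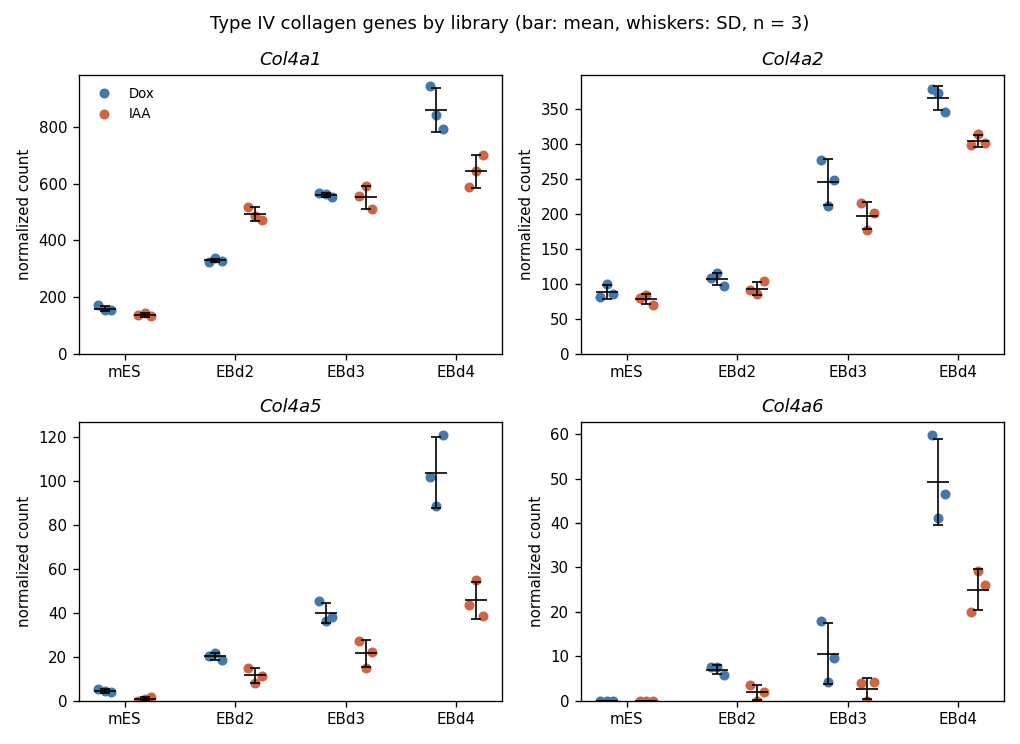
Normalized counts of Col4a1, Col4a2, Col4a5 and Col4a6 by library (points) in 4 stages with Dox (blue) or IAA (red); horizontal bars are means and whiskers SD of 3 libraries. Col4a1 is higher with IAA in EBd2 and lower in EBd4, and Col4a5 in EBd4 is lower in all IAA libraries.

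Of the type IV genes, Col4a1, Col4a2 and Col4a5 rose at each step of the Dox course. Col4a1 climbed from 159 ± 9.68 in mES to 329 ± 6.61, 561 ± 6.83 and 859 ± 77.4 at the 3 later stages, and each step was called. Col4a2 went from 88.7 ± 10.02 to 107 ± 8.97, 246 ± 33.1 and 366 ± 17.6. Its first step, 0.27 ± 0.11 (adjusted p = 0.0298), was lost with edgeR, with DESeq2, with the 6 libraries of both stages alone, and without mES Dox 1, mES Dox 3, EBd2 Dox 1 or EBd2 Dox 2 (up to 0.132). Col4a5 rose from 4.50 ± 0.870 to 20.2 ± 1.54, 39.8 ± 4.68 and 104 ± 16.3. Col4a6 was at least 7.62-fold higher in EBd2 than in mES and reached 49.2 ± 9.63 in EBd4, and its step from EBd2 to EBd3 was not called (adjusted p = 0.513). Col4a4 had its highest Dox mean in EBd2, at 7.43 ± 1.55 beside 1.82 ± 0.960 in mES, 5.39 ± 3.72 in EBd3 and 2.95 ± 1.96 in EBd4, with the first step called and the later ones not. Markers of primitive or parietal endoderm, an early source of basement membrane, summed to 398 to 521 in EBd4 Dox and 341 to 353 in EBd4 IAA libraries. In EBd4 1 of 8 such markers tested, Foxa2, fell and 0 rose, where 5.57% of all genes fell and 4.69% rose. The call of Foxa2 was lost without Dox 1, Dox 2 or IAA 2 (adjusted p up to 0.112) and with DESeq2 (0.170). Ttr, Afp and Thbd were at 0 in the EBd4 Dox libraries and Sox17 in the IAA libraries. In EBd2 the sums were 200 to 211 with Dox and 217 to 239 with IAA. There 1 of 10 was higher and 0 lower, where 13.4% of all genes were higher and 16.7% lower. Their part in the type IV changes was not tested.

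Of the fibrillar genes, 4 of 8 fell in mES and 1 rose, 4 of 11 fell in EBd2 and 1 rose, 2 of 11 fell in EBd3, and 4 of 10 fell in EBd4 and 1 rose. Over all genes, 20.1%, 16.7%, 6.32% and 5.57% fell in order of stage, and 17.3%, 13.4%, 4.22% and 4.69% rose. The falls include Col5a2 in mES and Col3a1 in EBd2, whose direction followed from the filter. Col5a3, a minor chain of type V, was at 179, 174 and 161 in mES Dox and at 61.5, 42.3 and 62.5 in mES IAA. It fell there by 1.63 on the log2 scale (SE 0.12, adjusted p = 7.40e-14) and held under every alternative. The same gene fell in Dox from 171 ± 9.54 in mES to 26.2 ± 4.61 in EBd2. Its EBd2 fall with IAA (-0.68 ± 0.25, adjusted p = 0.0430) was lost with edgeR, DESeq2, TMM or no filter on low values and without Dox 2, Dox 3, IAA 1 or IAA 2 (up to 0.169).

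Col5a2 and Col5a1 encode the chains of the common type V heterotrimer. Col5a2 was at 34.4, 39.7 and 42.3 in EBd2 Dox and at 15.9, 11.7 and 9.94 in EBd2 IAA. That fall of 1.58 on the log2 scale (SE 0.24, adjusted p = 3.08e-05) held under every alternative. In EBd3 it fell from 25.5 ± 5.62 to 9.36 ± 4.91 (-1.48 ± 0.37, adjusted p = 0.00897), a call lost without Dox 1, Dox 2 or IAA 2 (up to 0.0845). In mES it had 11 reads with Dox and 1 with IAA, a ratio of 11.5 (95% exact interval 1.67 to 496), and its direction there followed from the filter. In EBd2 Col5a1 was at 74.6, 70.9 and 98.3 with Dox and at 75.9, 100 and 84.2 with IAA. The groups overlap (change 0.10 ± 0.14, adjusted p = 0.654). Per kilobase, Col5a2 was at 0.381 to 0.496 of Col5a1 in EBd2 Dox libraries and at 0.104 to 0.185 in IAA libraries.

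Col5a1 fell in the other stages. In EBd4 it was at 241, 201 and 181 with Dox and at 141, 122 and 150 with IAA. All IAA libraries lay below the Dox libraries (-0.58 ± 0.12, adjusted p = 0.00780), and the call was lost without Dox 1 or IAA 2 (up to 0.0728). In EBd3 the values were 120, 110 and 123 against 94.2, 79.5 and 86.0 (-0.44 ± 0.13, adjusted p = 0.0308; lost with DESeq2, 0.147, and without Dox 1, Dox 2, Dox 3 or IAA 2, up to 0.131). In mES they were 167, 171 and 188 against 150, 159 and 141 (-0.22 ± 0.08, adjusted p = 0.0371). Its Dox level dipped in EBd2, from 175 ± 11.1 to 81.3 ± 14.9, and rose again to 118 ± 7.04 and 208 ± 30.3.

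Col2a1, the fibrillar chain of cartilage that is also made in early embryos, was the fibrillar gene that rose. In EBd2 it was at 116, 101 and 133 with Dox and at 178, 166 and 191 with IAA. The rise of 0.61 ± 0.11 (adjusted p = 0.000195) held under every alternative. In mES it rose from 45.2 ± 4.80 to 64.3 ± 4.08 (0.50 ± 0.15, adjusted p = 0.00563), a call lost with DESeq2 alone. In EBd4 it was at 187, 206 and 196 against 278, 285 and 214. That rise of 0.39 ± 0.11 (adjusted p = 0.0386) was lost without any of Dox 1, Dox 2, Dox 3, IAA 1 or IAA 2 (up to 0.199), and with DESeq2.

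Col11a1, which encodes a chain of type XI, fell in 2 stages. In mES it was at 28.1, 28.7 and 27.9 with Dox and at 9.77, 5.28 and 15.8 with IAA (-1.48 ± 0.29, adjusted p = 5.52e-05, held under every alternative). In EBd4 it was at 80.2, 49.8 and 56.7 against 16.1, 32.4 and 28.2 (-1.28 ± 0.27, adjusted p = 0.00699; lost without Dox 1, 0.0798). In EBd2 it stood at 25.6 ± 2.53 with Dox and 32.7 ± 5.36 with IAA, and the effect there minus that in mES was 1.82 ± 0.40 (adjusted p = 0.00130). Col1a2 fell in EBd4 from 25.6 ± 4.96 to 12.1 ± 4.66 (-1.07 ± 0.33, adjusted p = 0.0493), a call lost under 12 of 15 alternatives, among them leaving out Dox 1, Dox 2, Dox 3, IAA 2 or IAA 3 (up to 0.205). Col1a1, the other chain of type I, was at 14.7 and 13.7 in these groups (-0.05 ± 0.33, adjusted p = 0.947). Col24a1 fell in EBd4 from 10.5 ± 3.09 to 2.502 ± 0.761 (lost without Dox 1, Dox 2, IAA 1 or IAA 2, up to 0.123). Col3a1, type III, had 14 reads in EBd2 Dox and 1 in EBd2 IAA, a ratio of 14.4 (95% exact interval 2.19 to 609), and its direction there followed from the filter.

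Fibroblast or feeder markers were counted beside these changes. In mES 3 of 4 tested fell, Fbln1, Thy1 and Fbln2, where 20.1% of all genes fell. The 12 markers summed to 756 to 843 with Dox and 535 to 610 with IAA. Dcn, Lum, Postn, Fap, Twist2 and Mgp were at 0 in all mES Dox libraries. In EBd2 3 of 7 fell, among them Dcn (43.8 ± 4.41 to 10.7 ± 3.92), and 1 rose, where 16.7% of all genes fell and 13.4% rose. Sums in EBd2 were 600 to 631 with Dox and 600 to 614 with IAA. There Fap was at 0 with Dox, and Lum, Postn and Fap with IAA. In EBd4 0 of 7 fell and 1 rose, where 5.57% of all genes fell and 4.69% rose. Sums in EBd4 were 1151 to 1392 with Dox and 1423 to 1560 with IAA. Mesoderm markers summed to 1316 to 3178 in EBd4 Dox libraries and 173 to 2303 in EBd4 IAA libraries, and 1 of 9, Eomes, fell. The call of Eomes was lost without Dox 1, Dox 2, IAA 1 or IAA 2 (adjusted p up to 0.212). It was also lost with DESeq2 (0.347) and with a replicate block (0.0608). The part of either list in the fibrillar changes was not tested.

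Type VI genes, whose chains form beaded filaments beside cells, had 4 of 5 members called lower in EBd2, where 16.7% of all genes were lower. Col6a4 was at 56.2 ± 7.83 with Dox and 19.8 ± 5.88 with IAA there (-1.49 ± 0.22, adjusted p = 2.01e-05), and Col6a5 at 105 ± 9.14 and 61.8 ± 2.06 (-0.75 ± 0.12, adjusted p = 0.000100). Both calls were lost in a joint fit of all 24 libraries (adjusted p = 0.0589 and 0.0876) and under no other alternative. Col6a1 fell from 12.03 ± 2.44 to 4.01 ± 2.47 (adjusted p = 0.00821, lost without IAA 3, 0.0575) and Col6a2 from 48.1 ± 10.6 to 29.3 ± 2.89 (adjusted p = 0.0104, lost in the joint fit, 0.0669, and without Dox 1 or IAA 2, up to 0.0844). In mES, EBd3 and EBd4 0 of the 3, 5 and 4 type VI genes tested were called, where 37.5%, 10.5% and 10.3% of all genes were. With so few genes no difference between stages is read from these counts. Col6a4, Col6a5 and Col6a6 had their highest Dox means in EBd2. Col6a5 went from 2.40 ± 0.519 in mES to 105 ± 9.14, and then to 31.1 ± 2.43 and 10.4 ± 6.82. Col6a4 followed from 2.73 ± 1.66 to 56.2 ± 7.83 and 3.75 ± 2.48 in EBd3. Col6a1 and Col6a2 rose at the first step and were not called at the later ones. Their Dox means in mES, EBd2, EBd3 and EBd4 were 1.21, 12.03, 18.96 and 17.2 for Col6a1 and 2.98, 48.1, 49.7 and 54.5 for Col6a2. Col6a4, Col6a5 and Col6a6 are neighbours on chromosome 9.

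Col7a1, the anchoring fibril chain of epithelial basement membranes, rose in EBd2 with IAA. It was at 127, 116 and 99.0 with Dox and at 154, 142 and 156 with IAA, groups that did not overlap. The rise of 0.40 ± 0.11 (adjusted p = 0.00793) held under every alternative, and the effect was higher by 0.81 ± 0.19 than in mES (adjusted p = 0.00205). In the other stages Col7a1 was not called, with changes of -0.41 ± 0.18 in mES, 0.05 ± 0.11 in EBd3 and -0.06 ± 0.11 in EBd4.

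Among fibril-associated genes the mES changes split. Col20a1 was at 57.1, 46.0 and 36.2 with Dox and at 120, 137 and 116 with IAA, the largest rise of the 29 genes tested (1.42 ± 0.14, adjusted p = 5.18e-11). Col9a2, a chain of type IX that coats type II fibrils, rose from 382, 374 and 334 to 520, 520 and 514 (0.51 ± 0.06, adjusted p = 8.86e-10). Its partner Col9a3 fell from 22.1 ± 4.32 to 9.88 ± 2.40 (-1.10 ± 0.28, adjusted p = 0.00156), but 6.07% of its exonic bases overlap Tcfl5 on the other strand, and since strandedness is not given its reads are uncertain. Col22a1 fell from 27.6 ± 6.08 to 11.7 ± 2.19 (-1.16 ± 0.26, adjusted p = 0.000327). All 4 calls held under every alternative. In EBd2 Col9a2 was at 67.1, 81.3 and 73.2 with Dox and 61.8, 61.3 and 64.3 with IAA (-0.23 ± 0.13, adjusted p = 0.210), and the effect differed from that in mES by -0.75 ± 0.17 (adjusted p = 0.00208). In EBd3 it was at 107, 101 and 110 against 64.5, 79.5 and 96.6 (-0.42 ± 0.15, adjusted p = 0.0737), and in EBd4 at 94.2, 116 and 132 against 145, 122 and 139 (0.25 ± 0.14, adjusted p = 0.294). Col22a1 fell again in EBd3, from 39.0 ± 7.59 to 17.2 ± 4.27 (-1.14 ± 0.26, adjusted p = 0.00425; lost without Dox 2, 0.0555).

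Of the transmembrane collagens, Col17a1, the hemidesmosome collagen, fell in 3 stages. It was at 33.5, 38.2 and 35.3 in mES Dox and 13.7, 17.6 and 13.5 in mES IAA (-1.21 ± 0.22, adjusted p = 2.38e-05). In EBd2 it was at 51.1, 57.7 and 45.9 against 23.8, 26.2 and 22.5 (-1.06 ± 0.18, adjusted p = 0.000150). Both calls held under every alternative. In EBd3 it was at 23.7, 18.1 and 23.3 against 16.8, 2.48 and 8.49 (-1.43 ± 0.42, adjusted p = 0.0277; lost with DESeq2, 0.143, and without Dox 1, Dox 2, Dox 3 or IAA 2, up to 0.169). In EBd4 the Dox level was 10.5 ± 5.03 and the gene was not called. Col23a1 rose in mES from 31.6 ± 2.56 to 63.7 ± 7.73 (0.99 ± 0.16, adjusted p = 4.02e-06). Col13a1 had the largest fall of the family on leaving the stem cell state, from 157 ± 15.6 in mES Dox to 8.62 ± 1.25 in EBd2 Dox (-4.04 ± 0.39, adjusted p = 2.66e-09), and with IAA it was called in no stage.

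**Figure D4:**
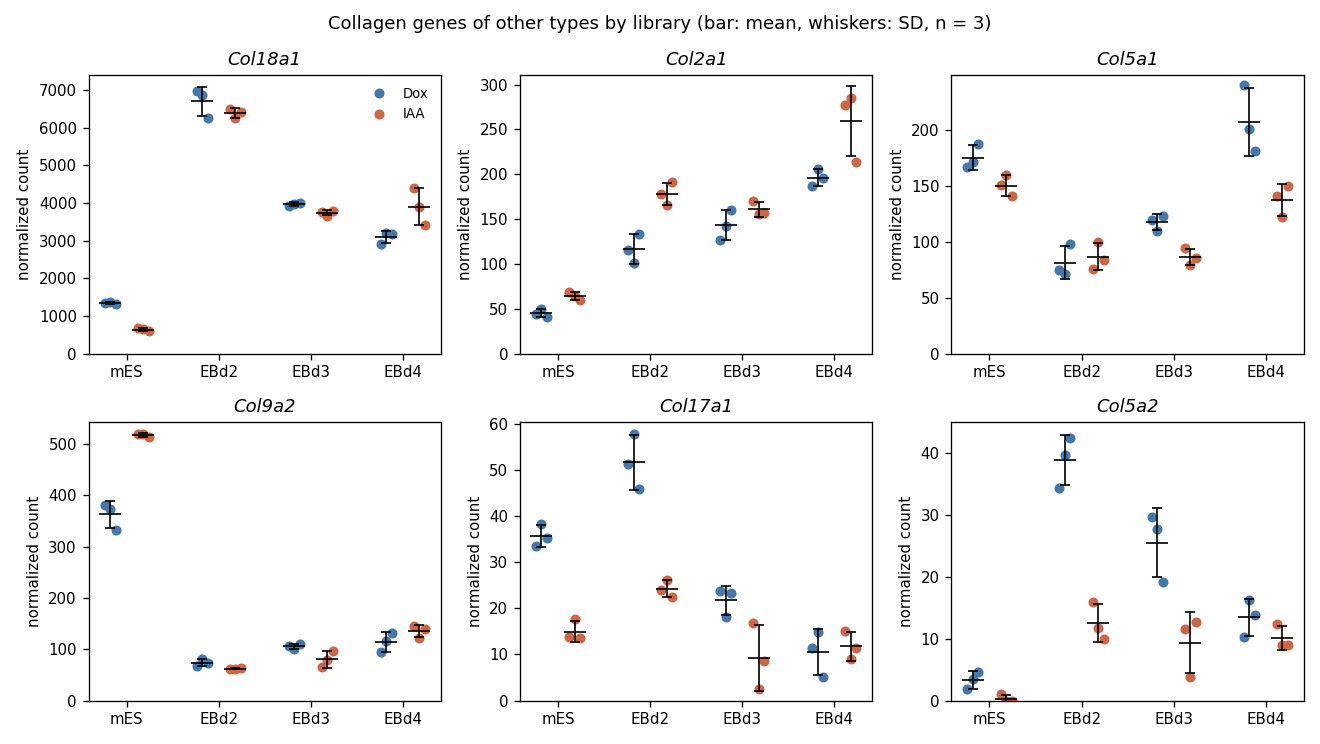
Normalized counts of Col18a1, Col2a1, Col5a1, Col9a2, Col17a1 and Col5a2 by library (points) in 4 stages with Dox (blue) or IAA (red); horizontal bars are means and whiskers SD of 3 libraries, and each panel has its own axis from 0. Col18a1 is lower with IAA in mES, Col17a1 in mES, EBd2 and EBd3, and Col5a2 in EBd2 and EBd3. The mES direction of Col5a2 followed from the filter on low values.

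Differences of the IAA effect between neighbouring stages were called for 9 collagen genes between mES and EBd2 (16.3% of all genes called), 7 with a higher effect in EBd2 (9.73% of all genes) and 2 with a lower (6.61%). Of these, 7 held under every alternative (Col18a1, Col4a1, Col9a2, Col7a1, Col9a3, Col11a1 and Col8a2). Between EBd2 and EBd3 the call was Col4a1 alone (7.22% of all genes called, 2.92% higher and 4.29% lower), and between EBd3 and EBd4 it was Col18a1, Col9a2 and Col22a1 higher and Col4a1 lower (4.93% of all genes called, 2.71% higher and 2.23% lower). Neighbouring differences share a stage's libraries. The 2 lower effects at the first difference, Col9a2 and Col11a2, numbered 1 without mES Dox 2, EBd2 Dox 2 or EBd2 IAA 3. The count at the second was 3 without EBd2 Dox 3 and 2 without EBd2 IAA 1, and the lower count at the third was 0 without EBd3 IAA 2, EBd4 Dox 1 or EBd4 IAA 1.

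Collagen genes differ in genomic span. In EBd4 7 of 21 collagen genes of at least 100 kb fell, against 1 of 15 shorter ones, where 16.4% and 4.33% of all genes of those spans fell. In EBd3 4 of 22 and 1 of 16 fell, where the shares of all genes were 28.3% and 3.74%. In EBd2 8 of 22 and 7 of 16 fell (all genes 25.8% and 15.6%), and in mES 6 of 16 and 5 of 13 (all genes 31.5% and 19.0%). Spearman's correlation of span with the log2 change was -0.06 in mES (n = 29 genes), -0.06 in EBd2 (n = 38), -0.46 in EBd3 (n = 38) and -0.51 in EBd4 (n = 36). These are across genes that share the same 6 libraries and are descriptions. Col4a5 spans 214 kb and Col4a6 309 kb, whereas Col2a1 spans 29.1 kb.

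**Figure D5:**
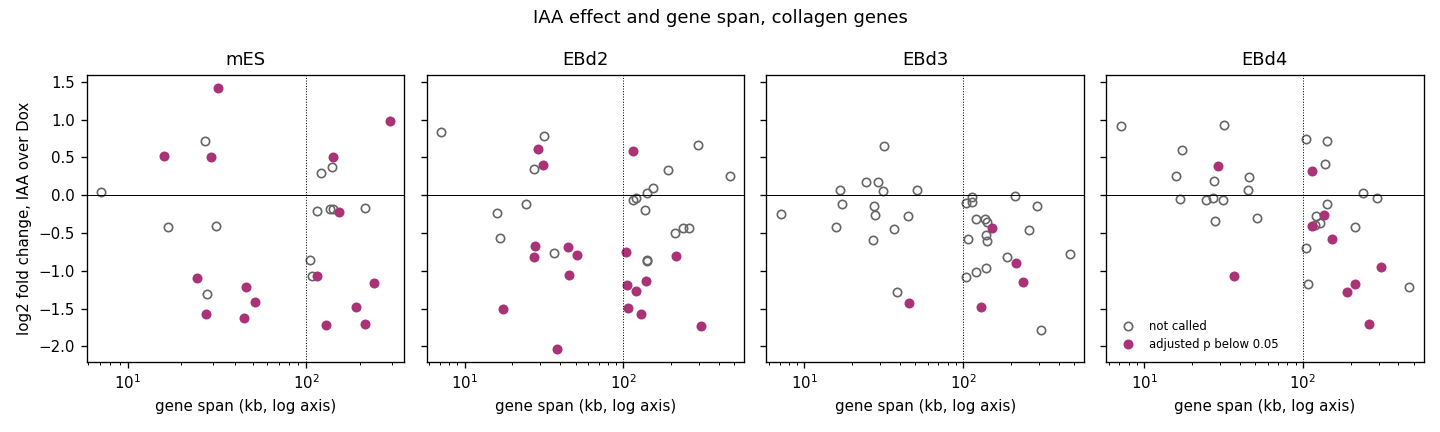
Log2 fold change of IAA over Dox against genomic span (kb, log axis) for the collagen genes tested in each of 4 stages; filled points have an adjusted p below 0.05 and the dotted line is at 100 kb. In EBd4 most called genes lie right of the line and below 0.

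The genes that build collagen were split. Beside the list counts below, 37.5% of all genes were called in mES, 30.1% in EBd2, 10.5% in EBd3 and 10.3% in EBd4. A list of 14 genes held enzymes that hydroxylate or glycosylate collagen chains and members of their complexes. Of these, 4 rose and 4 fell of 12 tested in mES, 5 rose and 2 fell in EBd2, 3 and 2 in EBd3, then 3 and 1 in EBd4. P4hb, the common subunit of prolyl 4-hydroxylase, rose in mES from 4575 ± 75.0 to 6533 ± 98.3 (0.51 ± 0.02, adjusted p = 2.12e-20) and in EBd2 from 5030 ± 218 to 7213 ± 224 (0.52 ± 0.04, adjusted p = 1.34e-08). Crtap, of the prolyl 3-hydroxylase complex, fell in all 4 stages, by 0.28, 0.64, 0.44 and 0.47 on the log2 scale in order of stage (in EBd4 adjusted p = 0.00551, and 0.0502 without Dox 1). P4ha1, a catalytic subunit, rose in all 4, most in EBd2 (92.3 ± 11.6 to 267 ± 14.6, 1.53 ± 0.10, adjusted p = 7.56e-10). Its EBd3 call was lost with DESeq2 (0.125) and without Dox 2 or IAA 1 (up to 0.0646). The mES call of P4ha1 was lost in a joint fit of all 24 libraries (0.111).

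Of 13 collagen chaperones and secretion genes, 5 rose and 5 fell in mES, 4 and 5 in EBd2, 2 and 3 in EBd3, then 1 and 2 in EBd4. Serpinh1, the collagen-specific chaperone HSP47, fell in mES from 1406 ± 86.3 to 788 ± 19.2 (-0.83 ± 0.04, adjusted p = 4.20e-19). It fell also in EBd2, EBd3 and EBd4, by 0.38, 0.38 and 0.24 on the log2 scale, the last lost without Dox 1 or IAA 2 (up to 0.0570). Fkbp10, which folds procollagen, fell in mES from 44.5 ± 3.78 to 14.3 ± 2.57 (-1.59 ± 0.22) and in EBd2 from 363 ± 21.1 to 168 ± 14.6 (-1.11 ± 0.08). Among propeptide processing and crosslinking genes 1 rose and 5 fell of 13 in mES, 3 and 6 of 15 in EBd2, 0 and 2 of 15 in EBd3, and 0 and 1 of 14 in EBd4. Adamts14, a procollagen N-proteinase, fell in mES from 87.7 ± 14.2 to 24.2 ± 1.94 (-1.80 ± 0.16, adjusted p = 9.35e-12), and Pxdn, the peroxidasin that crosslinks type IV, from 104 ± 7.89 to 44.8 ± 6.32 (-1.20 ± 0.13, adjusted p = 1.55e-09).

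Receptors and partners followed no single direction. Of the collagen receptors 0 rose and 3 fell of 7 in mES, 1 and 1 of 9 in EBd2, 0 and 0 of 8 in EBd3, and 0 and 2 of 6 in EBd4. Itgb1, the β1 integrin subunit, fell in mES from 3096 ± 101 to 2431 ± 37.1 (-0.35 ± 0.03, adjusted p = 8.57e-13). Of 13 basement membrane partners, 5 rose and 2 fell in mES, 3 and 6 in EBd2, 0 and 3 in EBd3, then 4 and 1 in EBd4. Lama5, a laminin chain, fell in mES (-0.28 ± 0.03, adjusted p = 1.05e-09) and in EBd2 (6483 ± 84.0 to 4558 ± 289, -0.51 ± 0.05, adjusted p = 4.12e-08). Fn1, fibronectin, rose in mES (0.29 ± 0.02) and in EBd4 (2544 ± 59.3 to 3685 ± 299, 0.53 ± 0.05, adjusted p = 6.04e-05). Collagenases, gelatinases and their inhibitors had 0 rises and 3 falls of 8 in mES, 1 and 2 in EBd2, 0 and 3 in EBd3, then 0 and 2 in EBd4, among them Mmp2 in mES (76.9 ± 5.12 to 26.9 ± 6.45, -1.50 ± 0.17, adjusted p = 2.33e-09).

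Markers of other cell types were counted the same way, and their part in the collagen changes was not tested. Of 8 naive pluripotency markers 7 rose and 0 fell in mES, 0 and 5 in EBd2, 1 and 1 in EBd3, then 4 and 1 in EBd4. Neuroectoderm markers had 3 rises and 2 falls of 6 in mES, 4 and 1 of 8 in EBd2, 1 and 1 of 8 in EBd3, and 1 and 1 of 7 in EBd4. Trophoblast markers had 0 and 3 of 5 in mES, 2 and 1 of 7 in EBd2, 0 and 0 of 7 in EBd3, and 2 and 0 of 7 in EBd4. For blood and endothelium the counts were 1 and 2 of 6, 0 and 3 of 7, 0 and 1 of 7, and 1 and 0 of 7 in order of stage. Mesoderm markers had 0 rises in each stage, with 1, 2, 0 and 1 falls in the same order, and endoderm markers had 0 and 0 of 7 in mES and 0 and 0 of 9 in EBd3. Fibroblast markers in EBd3 had 0 rises and 2 falls of 7.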

How the data were processed

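Total RNA was extracted with TRIzol and sequenced on Illumina libraries, 3 per group in 8 groups. Per the submitters' processing notes, STAR 2.5.3a, featureCounts 1.5.2 and DESeq2 were used with mm10; annotation version and strandedness are not given in the sources used here. The authors deposited 1 table per stage with a normalized signal per library, counts divided by a size factor, per the file headers and values. Whole read counts were recovered from those deposited values for 100% of entries (tolerance 1e-06). The tables also hold the authors' log2 fold changes, test statistics (a score) and p-values, used only where named. Rows without a symbol (14339 genes) held 1.12% to 1.32% of reads.

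Collagen genes and lists were chosen with earlier results of these data known. limma 3.58.1 (R 4.3.3, trend) was fitted across all genes with a mean of at least 1, on log2 of the value plus 1, with Benjamini-Hochberg adjustment at 0.05. IAA comparisons used the 6 libraries of a stage, Dox steps the 12 Dox libraries and stage differences all 24. Alternatives were constants of 0.5 and 4, no filter, a mean of at least 10, TMM, edgeR 4.0.16, DESeq2 1.42.0, a replicate block, other sets of libraries and each library left out; the fits were tested on simulated data. Values per library are given where a gene averaged at least 100 over all libraries and, per comparison, up to 4 called genes each way with a group mean of at least 20; other genes named were called, or are a partner chain chosen after values were seen. List genes named with a change were among the up to 4 called genes of their list with the smallest adjusted p in a stage. Some genes among those 4 are not named. Intervals and floors (3 reads) cover counting error only. Exonic lengths came from GENCODE M21. Figures were drawn with matplotlib 3.10.9.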

Additional observations from a re-analysis of the deposited data

Results flagged for a closer look

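The IAA effect differed between neighbouring stages in the collagen genes below, by limma's test of the difference itself, later stage minus earlier, on the log2 scale. From mES to EBd2 the effect was higher for Col18a1 by 1.01 (adjusted p = 3.19e-11), Col4a1 by 0.79, Col7a1 by 0.81, Col9a3 by 0.97, Col11a1 by 1.82 and Col8a2 by 1.93, and it differed by -0.75 for Col9a2. These calls held under every alternative. Col5a3 (0.95, adjusted p = 0.0428) lost its call without any of mES Dox 1, mES Dox 2, mES Dox 3, mES IAA 2, EBd2 Dox 1, EBd2 Dox 2 or EBd2 IAA 3 (up to 0.142). The call was also lost with a constant of 0.5 (0.0513) and with no filter on low values (0.0546). Col11a2 (-1.53, adjusted p = 0.0176) lost its call without mES Dox 2, EBd2 Dox 2 or EBd2 IAA 3 (up to 0.0659).

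From EBd2 to EBd3 the effect on Col4a1 differed by -0.61. From EBd3 to EBd4 it differed by 0.41 for Col18a1, which held under every alternative. For Col4a1 (-0.39) the call was lost without EBd3 IAA 2, EBd4 Dox 1 or EBd4 IAA 1 (up to 0.0976). For Col9a2 (0.67) it was lost without EBd3 IAA 1 or EBd4 Dox 1 (up to 0.0831) and with the 12 libraries of both stages alone (0.0901). For Col22a1 (1.17) it was lost without 8 of 12 libraries, namely EBd3 Dox 1, EBd3 Dox 2, EBd3 IAA 2, EBd3 IAA 3, EBd4 Dox 2, EBd4 Dox 3, EBd4 IAA 1 or EBd4 IAA 2 (up to 0.112). The Col22a1 call was also lost with no filter (0.0649), a replicate block (0.0574) and the 12 libraries of both stages alone (0.0863).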

How the results depend on the processing

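Recomputed under alternatives, the values of the genes called or named in the text kept direction and call in 4155 cases, lost the call in 400, gained one in 18 and changed sign in 19 (none of the 19 was called). Members neither called nor named are outside those totals, and some of them gained calls. Counts that moved by over 1.5 times were as follows, and the cause was not tested. With DESeq2, falls with IAA numbered 6 in mES, 6 in EBd2, 2 in EBd3 and 5 in EBd4, rises in EBd4 1, and falls from EBd3 to EBd4 in Dox 4. In EBd2 falls numbered 9 with a mean of at least 10, which tests fewer genes, and 7 in the joint fit of 24 libraries. For stage differences, the 12 libraries of both stages gave 5 lower from mES to EBd2, 2 lower from EBd2 to EBd3 and 1 higher from EBd3 to EBd4, and edgeR gave 2 lower from EBd2 to EBd3.

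With 1 library left out, falls with IAA ranged from 8 to 16 in EBd2, 1 to 7 in EBd3 and 2 to 7 in EBd4, and rises in EBd4 from 0 to 2. Falls from EBd3 to EBd4 in Dox ranged from 4 to 6, and lower stage differences from 1 to 3, 1 to 3 and 0 to 1 in order of stage. Uncalled values that crossed 0 were, for IAA, Col5a1 in EBd2 (-0.0084 to 0.24), Col4a1 in EBd3 (-0.078 to 0.028), and Col7a1 in EBd3 (-0.050 to 0.15) and EBd4 (-0.12 to 0.0079). From EBd3 to EBd4 in Dox they were Col9a2 (-0.021 to 0.22) and Col7a1 (-0.14 to 0.013). Among stage differences they were Col18a1 from EBd2 to EBd3 (-0.047 to 0.031) and Col4a2 from EBd3 to EBd4 (-0.043 to 0.15) and from mES to EBd2 (-0.11 to 0.048). The last was 0.0072 with TMM, 0.040 with edgeR and 0.011 with DESeq2.

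Same-numbered replicates showed no shared deviation (correlations from -0.180 to 0.0940, beside up to 0.194 for libraries of different numbers). With 3 libraries per group this does not settle whether equal numbers mark a shared culture, which the labels do not state. With the replicate block EBd4 had 5 falls and 1 rise with IAA (Col4a2, Col2a1, Col4a6 and Col1a2 lost their calls, Col4a6 at adjusted p = 0.0511), and the lower difference from EBd3 to EBd4 numbered 0. Genes with few reads, such as Col4a5 in mES, are limited by depth.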
